A study of Mus musculus with 2 samples.

Results

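Trp53 and 9 genes of its network were followed in Klf5-overexpressing mouse embryonic stem (ES) cells: its inhibitors Mdm2 and Mdm4 and the target genes Cdkn1a, Ccng1, Trp53inp1, Ei24, Bax, Bbc3 and Zmat3. The members are the listed genes with every array probe set annotated to that gene symbol alone. Of the 10 genes 8 had such a probe set, 17 probe sets in all out of 45037 on the array and 34945 with a single symbol. Trp53 itself and Bax had none in the annotation used here and were not analysed here, so the level of Trp53 RNA is not part of what follows.

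The samples are 2 clones of E14 ES cells, an established mouse line, that overexpress the zinc finger transcription factor Klf5. Per the labels they were kept undifferentiated in ES medium with 15% fetal bovine serum and LIF (leukaemia inhibitory factor, which sustains self-renewal), and each clone was hybridised to 1 Affymetrix array. Both arrays belong to 1 group, Klf5 OE, and each clone is 1 derived line, so causes of a difference between the arrays cannot be told apart, and no comparison with cells lacking the overexpression is made. The wild-type clones that the study set against them were not analysed here. How overexpression was driven is not stated in the labels. Klf5 was read by 3 probe sets, at 11.61 and 12.25, 6.97 and 7.26, and 4.81 and 4.77 on the log2 scale in clones 1 and 2, the last of them not above background. The brightest was thus 0.64 higher in clone 2, and the part of this difference in Klf5 in the results was not tested.

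The p53 protein, encoded by Trp53, is a transcription factor that accumulates after DNA damage and other stress. It switches on genes that stop the cell cycle, repair DNA or start apoptosis. One of its targets is Mdm2, a ubiquitin ligase that marks p53 for destruction, which closes a negative feedback loop, and the related Mdm4 binds p53 and blocks its activity. In mouse ES cells p53 is abundant, much of it is held in the cytoplasm, and the G1 arrest that it brings about through Cdkn1a in other cells is weak.

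p53 binds DNA as a tetramer, at a pair of 10-base elements (decamers). The 250 bases before each start site were searched for exact matches to the p53 consensus decamer, which reads the same on both strands, in RefSeq promoter windows of build GRCm38.p6. Trp53inp1 and Zmat3 have no window in that table. Among its 32851 windows a share of 7.13% (2341) held a match, and of 27025 genes 2216 (8.2%) did in at least 1 window. Of the 8 members with a window 6 held a match, namely Trp53, Mdm2, Cdkn1a, Ccng1, Ei24 and Bax, and Mdm4 and Bbc3 held none. A match is a description of the letters and not a measured binding site. Of the windows below, both of Cdkn1a are shown because its probe sets disagreed, and those of Mdm2, Ccng1 and Ei24 because each is a measured member with a match. Each is written 5′ to 3′ on the strand of the gene and ends at the base before the start site, with matches to the decamer in capitals. The upstream window of Cdkn1a lies at chr17:29090729-29090978 on the plus strand and the downstream one at chr17:29093519-29093768, so their start sites are 2790 bases apart. The others lie on the minus strand, Mdm2 at chr10:117710759-117711008, Ccng1 at chr11:40755287-40755536 and Ei24 at chr9:36797335-36797584.
Cdkn1a, upstream start site: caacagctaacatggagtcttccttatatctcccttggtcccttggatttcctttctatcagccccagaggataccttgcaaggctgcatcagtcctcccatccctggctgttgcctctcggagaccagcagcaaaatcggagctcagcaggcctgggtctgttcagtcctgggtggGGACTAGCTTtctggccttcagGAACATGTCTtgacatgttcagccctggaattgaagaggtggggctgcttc
Cdkn1a, downstream start site: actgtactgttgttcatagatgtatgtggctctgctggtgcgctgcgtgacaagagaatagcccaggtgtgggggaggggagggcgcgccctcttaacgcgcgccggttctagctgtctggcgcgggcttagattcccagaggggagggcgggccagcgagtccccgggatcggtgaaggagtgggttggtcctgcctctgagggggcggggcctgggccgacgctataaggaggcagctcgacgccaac
Mdm2: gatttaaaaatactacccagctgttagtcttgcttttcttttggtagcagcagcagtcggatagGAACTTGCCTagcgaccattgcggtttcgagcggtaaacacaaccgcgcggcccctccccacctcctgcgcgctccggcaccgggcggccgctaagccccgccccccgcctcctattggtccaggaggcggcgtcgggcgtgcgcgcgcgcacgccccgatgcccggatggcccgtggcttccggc
Ccng1: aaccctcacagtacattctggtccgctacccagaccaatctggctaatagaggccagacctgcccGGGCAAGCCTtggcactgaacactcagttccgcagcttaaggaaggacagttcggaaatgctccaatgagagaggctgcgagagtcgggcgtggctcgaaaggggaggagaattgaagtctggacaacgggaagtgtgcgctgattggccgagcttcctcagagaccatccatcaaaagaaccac
Ei24: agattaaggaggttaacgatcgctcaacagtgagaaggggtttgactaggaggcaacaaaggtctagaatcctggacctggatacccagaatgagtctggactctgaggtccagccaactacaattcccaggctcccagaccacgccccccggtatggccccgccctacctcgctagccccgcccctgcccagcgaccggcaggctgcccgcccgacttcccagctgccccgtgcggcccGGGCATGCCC
The upstream Cdkn1a window held 2 decamers, GGACTAGCTT from 73 bases and GAACATGTCT from 51 bases before the start site. These 2 are not adjacent, and the search does not show that they form a pair. Directly after GAACATGTCT lies tgacatgttc, which departs from the decamer at its first letter, so a search for exact matches leaves it unmarked. Only 85 of the 32851 windows (0.259%) held 2 or more. The downstream Cdkn1a window held none. Mdm2 held GAACTTGCCT from 186 bases, Ccng1 GGGCAAGCCT from 185 bases and Ei24 GGGCATGCCC from 10 bases before the start site.

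The measured members were above background in these cells. The background of an array was taken from 55 genes known from adult tissues such as eye lens, pancreas, muscle and lymphocytes. The 95th percentile of their 87 probe sets gave 6.69 in clone 1 and 6.28 in clone 2 on the log2 scale of the deposited signals. With each gene read by its brightest probe set, 8 of 8 measured members passed it in both clones, where 47.8% of all 18193 genes did. Of the 17 member probe sets 14 passed in both clones, 1 of Mdm4 did in clone 2 alone, and 1 each of Mdm2 and Mdm4 passed in neither. Among all single-symbol probe sets 39.3% passed in both. Probe sets differ in how well they bind, so no member's signal was ranked against another's. In total RNA of a culture, fewer cells that express a gene and less RNA per cell cannot be told apart.

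**Figure D1:**
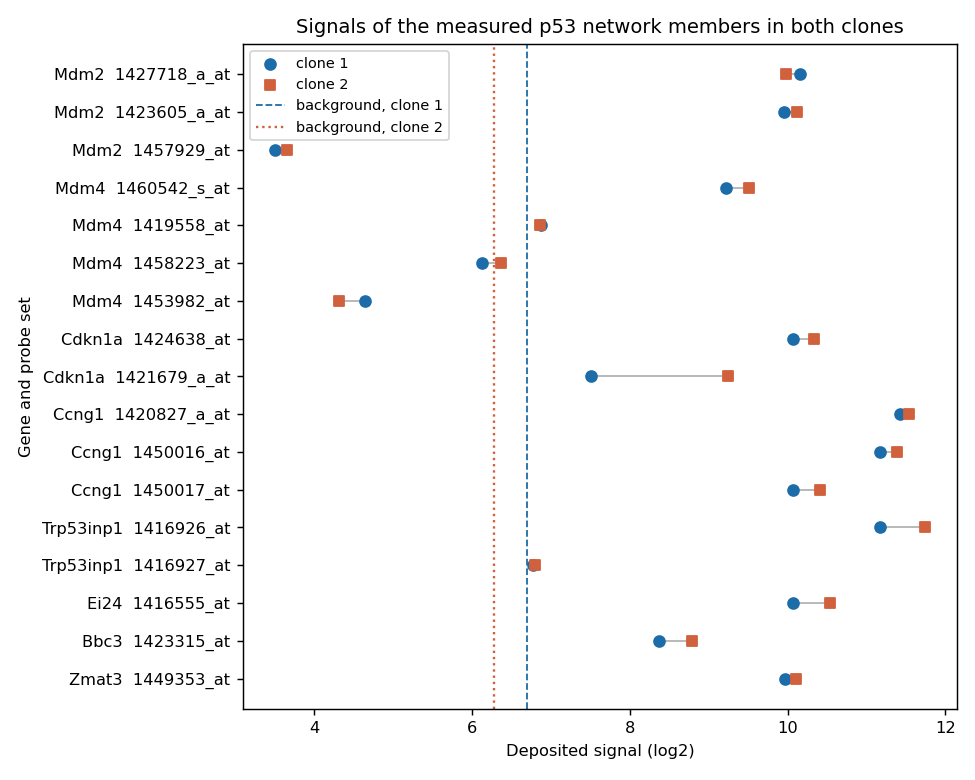
Deposited log2 signal (horizontal axis) of the 17 probe sets of the 8 measured members in clone 1 (circles) and clone 2 (squares), with the background of each array as a vertical line. The symbols of a row lie close together except for Cdkn1a 1421679_a_at, at 7.51 and 9.25.

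The inhibitors of p53 differed little between the clones. Mdm2, the ubiquitin ligase, gave 10.16 in clone 1 and 9.98 in clone 2 by its brightest probe set, 1427718_a_at. It gave 9.95 and 10.12 by 1423605_a_at. Its 2 bright probe sets thus went in opposite directions, by -0.18 and 0.17 (clone 2 minus clone 1, log2), and give the gene no direction. Such a split is common on these arrays: of 3318 genes with several probe sets above background in both clones, 1575 (47.5%) held differences of both signs. Some of these genes had more than the 2 such probe sets of Mdm2, so the share is not on equal numbers. The third Mdm2 probe set, 1457929_at, was not above background, at 3.51 and 3.66.

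Mdm4, the inhibitor that binds the same region of p53 as Mdm2, gave 9.22 in clone 1 and 9.51 in clone 2 by 1460542_s_at, its brightest probe set. The mean was 9.37 ± 0.21 (SD, n = 2), 1.22-fold higher in clone 2. The suffix _s_at marks a probe set that may bind transcripts of several genes. Of its dimmer probe sets, 1419558_at gave 6.88 and 6.86, and 1458223_at gave 6.13 and 6.37, which passed background in clone 2 alone. The last, 1453982_at, was not above background, at 4.65 and 4.32. Among the Mdm4 probe sets above background in both clones, direction rests on the brightest. The difference by 1419558_at was -0.02, and 0.07 when both arrays were shifted to the same median. Of the other Mdm4 probe sets, 1458223_at differed by 0.24 and 1453982_at, not above background, by -0.33.

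Cdkn1a encodes the cyclin-dependent kinase inhibitor p21, which carries out p53-driven arrest. It alone among the measured members had a probe set that differed 2-fold or more. The probe set 1421679_a_at gave 7.51 in clone 1 and 9.25 in clone 2, averaging 8.38 ± 1.23 (SD, n = 2) and 3.34-fold higher in clone 2. Of the 17005 probe sets that passed background in 1 clone or both, 116 (0.682%) differed 2-fold or more with the higher clone above background, 101 of them (0.594%) higher in clone 2. The Cdkn1a difference of 1.74 was the largest among the 14887 probe sets above background in both clones, and 3 of the 17005, itself included, differed as much. In clone 1 this probe set lay 0.82 above background. With background at the 99th percentile, 7.58 in clone 1, its signal of 7.51 did not pass there. With 1 array per clone there is no test of this difference.

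The other Cdkn1a probe set did not show a difference of that size. It is the brighter one, 1424638_at, and gave 10.07 in clone 1 and 10.33 in clone 2, 1.20-fold higher in clone 2. Both probe sets were higher in clone 2, but their differences, 1.74 and 0.26, lay 1.48 apart. Of the 3318 genes with several probe sets above background in both clones, 6 (0.181%) had probe sets that lay as far apart, and the median gene's lay 0.27 apart. Within a clone, 1424638_at exceeded 1421679_a_at by 2.56 in clone 1 and by 1.08 in clone 2. The suffix _a_at marks a probe set that reads several transcript variants of 1 gene. Which of the Cdkn1a start sites shown above gives the transcripts that each probe set reads was not given in the sources used here. Whether total Cdkn1a RNA differed 2-fold therefore depends on the probe set. The mean of both differences was 1.00, which is 2-fold. It weighs the bright and the dim probe set equally and is not a measure of total Cdkn1a RNA.

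**Figure D2:**
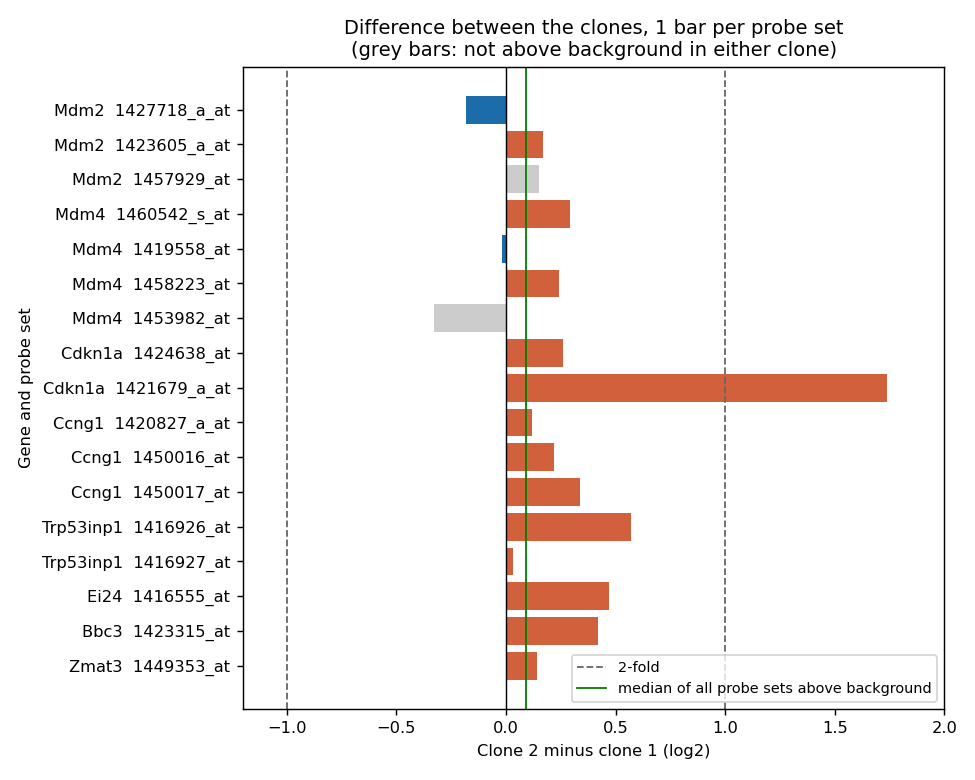
Clone 2 minus clone 1 on the log2 scale (horizontal axis), 1 bar per member probe set, red where higher in clone 2, blue where lower and grey where not above background in either clone. The bar of Cdkn1a 1421679_a_at reaches 1.74, and the next longest, Trp53inp1 1416926_at, reaches 0.57.

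Ccng1 and Zmat3, targets that feed back on p53 or on RNA stability, were slightly higher in clone 2. Ccng1, which encodes cyclin G1, a partner of protein phosphatase 2A that acts on Mdm2, gave 11.42 in clone 1 and 11.54 in clone 2 by 1420827_a_at. By 1450016_at it gave 11.17 and 11.39, and by 1450017_at 10.07 and 10.41. The 3 probe sets went the same way, by 0.12, 0.22 and 0.34. Zmat3, an RNA-binding zinc finger protein, gave 9.97 and 10.11 by its single probe set, 1.10-fold higher in clone 2. Such differences were frequent: 3791 (22.3%) of the 17005 probe sets differed by as much as the largest of these, that of 1450017_at. As large a difference as that of the brightest Ccng1 probe set was seen in 11132 (65.5%), and as that of Zmat3 in 10214 (60.1%).

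Trp53inp1, Ei24 and Bbc3, targets linked to cell death and stress, each had their brightest probe set higher in clone 2. Trp53inp1, a nuclear protein that promotes p53-dependent apoptosis, gave 11.17 in clone 1 and 11.74 in clone 2 by 1416926_at. The mean was 11.46 ± 0.40 (SD, n = 2), 1.48-fold higher in clone 2, and 1088 (6.4%) of the 17005 probe sets differed by as much. Its other probe set, 1416927_at, gave 6.77 and 6.80, just above background in clone 1, and its difference of 0.03 turned to -0.05 under quantile normalization and -0.03 under loess. Direction and size for Trp53inp1 thus come from the bright probe set.

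Ei24, a membrane protein of the endoplasmic reticulum induced by p53, gave 10.07 in clone 1 and 10.54 in clone 2, averaging 10.31 ± 0.33 (SD, n = 2) and 1.39-fold higher in clone 2. Bbc3, the BH3-only protein Puma that frees Bax and Bak1 to permeabilise mitochondria, gave 8.37 and 8.79, averaging 8.58 ± 0.30 (SD, n = 2) and 1.34-fold higher in clone 2. Each of these genes was read by 1 probe set, so no second reading bears on its direction. As large a difference was seen in 1916 (11.3%) and 2514 (14.8%) of the 17005 probe sets. None of Trp53inp1, Ei24 and Bbc3 reached 2-fold. At 1.5-fold, passed by 960 (5.65%) of the 17005 probe sets, Cdkn1a 1421679_a_at remained the single member probe set past the threshold.

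**Figure D3:**
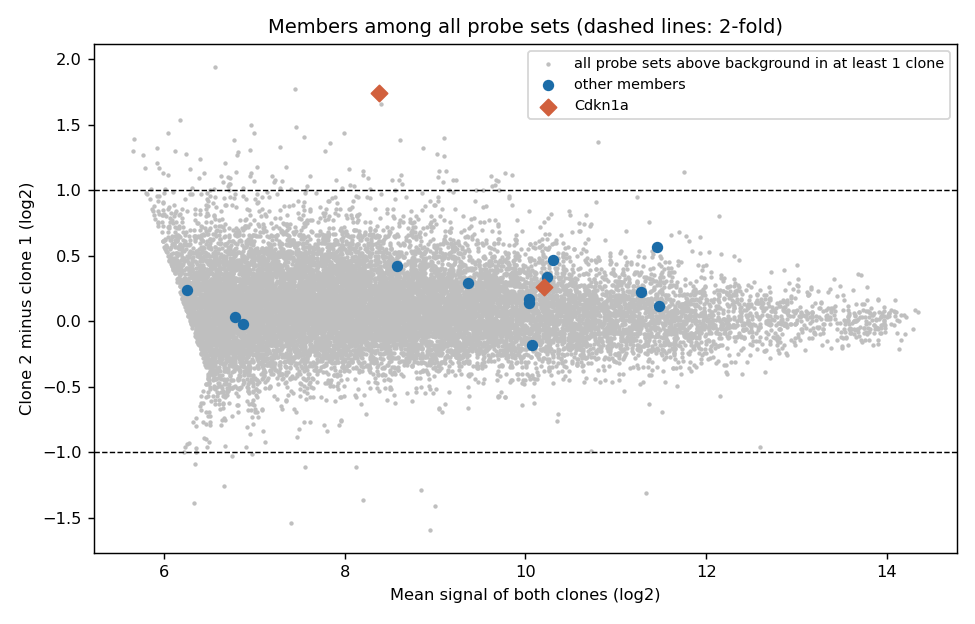
Clone 2 minus clone 1 (vertical axis, log2) against the mean signal of both clones (horizontal axis, log2) for the 17005 probe sets that passed background in 1 clone or both (grey), with Cdkn1a as diamonds and the other members as circles. One Cdkn1a probe set lies at 1.74, above nearly all grey points, while the 14 other member probe sets lie between -0.18 and 0.57.

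As a set the members lay mostly on the side of clone 2. By the brightest probe set 7 of 8 genes were higher in clone 2 and Mdm2 was lower, where 63.9% of the 9607 genes that passed background in 1 clone or both were higher. Mdm2 was higher by its other bright probe set, by 0.17, so its place in this count depends on the probe set. The median difference of the 8 members was 0.275, against 0.09 over those 9607 genes. Over the 15 member probe sets that passed in 1 clone or both, 13 were higher in clone 2 (63.6% over all 17005). Their median was 0.24 against 0.09, and over the 14 above background in both clones 12 were higher. Several of these probe sets read the same gene and are not replicates, so these counts partly repeat that of the genes. The share over all genes moves with the scale of the arrays, to 77.7% with both arrays shifted to the same median, 49.4% under quantile normalization and 51.8% under loess. Under each of these scalings 7 of the 8 members were higher in clone 2, and their median was 0.365, 0.19 and 0.20 respectively, against 0.18, 0.00 and 0.01 over all genes. These are counts over 2 arrays, and the genes were not picked independently of them.

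Other genes of the pathway were described from 5 lists, to be read against the shares over all 9607 genes: 63.9% higher in clone 2, a median of 0.09, 0.448% at 2-fold and 4.44% at 1.5-fold. The share higher in clone 2 and the median move with the scaling and the background filter, as given above. Among 22 measured regulators of p53 (kinases, acetylases, ubiquitin enzymes and the relatives Trp63 and Trp73), 18 passed background in both clones and 1 in clone 2 alone. Cdkn2a, Trp63 and Trp73 passed in neither. Of the 19 that passed, 9 were higher, 9 lower and 1 equal in clone 2, with a median of 0.00, and 0 differed 2-fold. At 1.5-fold 4 of the 19 differed, and Sirt1 (8.66 and 9.29), Ube4b (8.88 and 9.48) and Hipk2 (7.55 and 6.96) among them were named after their values were seen. Setd7, a lysine methyltransferase that modifies p53, gave 6.15 and 6.82 and passed background in clone 2 alone. It is 1 of the 9 higher and entered that count through the clone where it was high. Rpl11, a ribosomal protein that can bind and restrain Mdm2, gave 13.63 in both clones.

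Further p53 targets in growth arrest, DNA repair and metabolism were above background in both clones for 19 of 20 genes. In clone 2, 16 of the 19 were higher. Their median difference was 0.16, and 0 reached 2-fold. Polk, a translesion DNA polymerase, gave 7.47 in clone 1 and 8.33 in clone 2, 1.82-fold higher in clone 2 and the 1 gene of that list past 1.5-fold. Ddit4, an inhibitor of the growth kinase mTORC1, gave 11.60 and 11.49. Under quantile normalization the median of the list was 0.04.

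Further p53 targets in cell death passed in both clones for 10 of 14 genes and in 1 clone for 1, with 8 higher and 3 lower in clone 2 and a median of 0.11. That median was -0.01 under quantile normalization. Dram1, a lysosomal protein linked to autophagy, gave 5.95 and 6.44 and passed in clone 2 alone. It is 1 of the 8 higher and entered that count through the clone where it was high. Siva1, a pro-apoptotic protein, gave 11.32 and 11.40. Of the Bcl2 family 9 of 13 genes passed in both clones, 6 of them higher and 3 lower in clone 2, with a median of 0.12. That median was 0.03 without a background filter and 0.04 with a gene's probe sets averaged. Bcl2l11, the BH3-only protein Bim, gave 10.28 in clone 1 and 9.64 in clone 2, 1.56-fold lower in clone 2, opposite to its relative Bbc3. Mcl1, an anti-apoptotic member, gave 12.25 and 12.37. In neither list did a gene differ 2-fold, and at 1.5-fold 0 of the cell death targets and 2 of the Bcl2 family did. The second of these, Bak1 (7.05 and 7.67), was named after its values were seen.

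Cyclins, cyclin-dependent kinases (CDKs) and their inhibitors passed in both clones for 15 of 19 measured genes and in 1 clone for 2, with 8 higher, 8 lower and 1 equal in clone 2 and a median of 0.00. One gene differed 2-fold: Cdkn1c, which encodes the p21 relative p57, gave 8.18 in clone 1 and 6.64 in clone 2, 2.91-fold lower in clone 2. At 1.5-fold 2 of the 17 genes above background differed. Cdkn2b (6.27 and 6.73) and Cdkn2c (6.55 and 6.45), named after their values were seen, passed in clone 2 alone. Cdkn2b is 1 of the 8 higher and entered that count through the clone where it was high. Cdkn2c is 1 of the 8 lower. Pcna, the DNA clamp that p21 binds, gave 13.34 and 13.25.

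**Figure D4:**
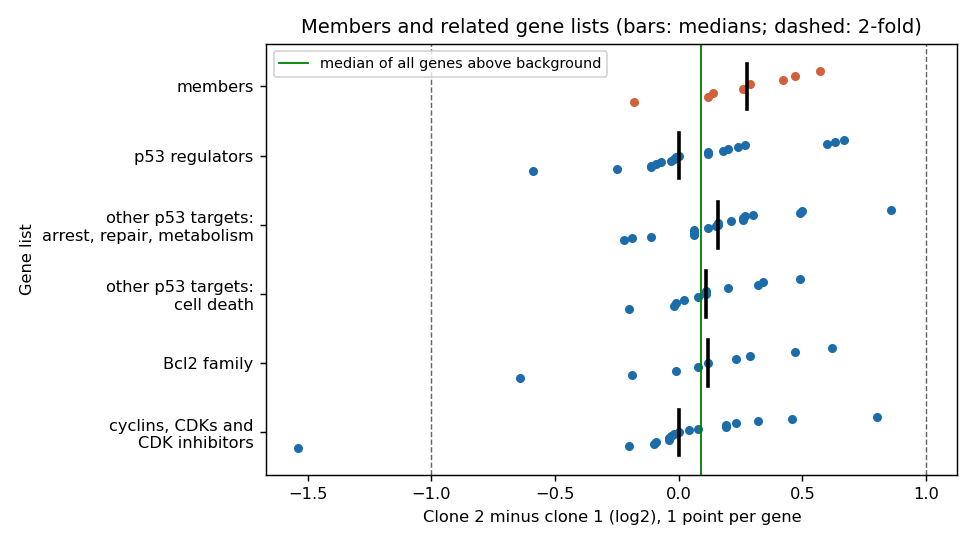
Clone 2 minus clone 1 (horizontal axis, log2), 1 point per gene that passed background in 1 clone or both by its brightest probe set, for the 8 measured members and 5 related lists, with list medians as black bars and the median of all 9607 genes as a green line at 0.09. The members' median lies at 0.275, and the point at -1.54 is Cdkn1c.

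The labelled cell type was read from markers of ES cells and of cells that a culture could also hold. All 8 ES cell markers (Pou5f1, Sox2, Nanog, Zfp42, Dppa5a, Esrrb, Tdgf1 and Lin28a) passed in both clones, with a median signal of 12.33 in clone 1 and 12.52 in clone 2. In both clones passed 2 of 10 fibroblast markers, 2 of 8 of primitive endoderm, 1 of 7 of trophoblast, 1 of 6 of neurectoderm and 0 of 5 measured of mesoderm. Their list medians lay between 4.94 and 6.16 in clone 1 and between 4.43 and 6.25 in clone 2, under background. Those that passed in both clones were Thy1 (7.54 and 7.66) and Pdgfrb (7.33 and 7.16) of fibroblasts, Lamb1 (10.05 and 9.82) and Dab2 (8.32 and 8.26) of primitive endoderm, Eomes (8.24 and 8.60) of trophoblast and Nes (6.90 and 7.14) of neurectoderm. Acta2 (5.99 and 6.35), Sox17 (6.31 and 6.81) and Tubb3 (6.35 and 6.79) passed in clone 2 alone, and Mesp1 (7.30 and 6.04) in clone 1 alone. The part of these markers in the differences above was not tested.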

How the data were processed

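Total RNA of 2 clones was hybridised to Affymetrix mouse arrays with a biotin label, per the labels. Deposited by the authors was a log2 signal for each probe set on each array, made with Transcriptome Analysis Console according to the submitters' processing notes. How background was corrected and signals were normalized, and with which arrays, was not given in the sources used here. Nor was the log base, taken as 2 from the range of 2.21 to 14.38, so every fold rests on it. Values were used as deposited, without detection calls. The number of arrays limits the precision.

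Probe sets were named from the platform annotation where it gave 1 symbol (34945), while 932 had several and 9160 are unnamed here. Entrez identifiers matched 34741 to the gene table of GRCm38.p6, which changed 0 symbols. The files name no build, and the coordinates given are those of the RefSeq promoter windows alone. A gene was read by its probe set with the highest mean.

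Differences are clone 2 minus clone 1. With 0 residual degrees of freedom no p-value was computed, and a 2-fold difference with the higher clone above background was a fixed rule of size. Named were all members, Klf5 and, of each pathway list, genes 2-fold apart, that with the largest difference and that with the highest signal. The members and lists were chosen with earlier results of these data known. The alternatives were 3 normalizations (median, quantile, loess with span 0.3), a background at the 90th or the 99th percentile, one from 84 probe sets of sensory receptors and no background, the mean over probe sets, omission of _x_at and _s_at probe sets, a 1.5-fold threshold and each clone alone. Added after the data were seen were a background list that omits Mylpf, the members without Cdkn1a and the count of member genes at 2-fold. The alternatives for the pathway lists were not planned either. Python 3.11.15 with pandas 2.3.3 and statsmodels 0.14.6 was used. The procedure was tested on simulated data with differences planted in bright probe sets alone, which does not cover signals near background.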

Additional observations from a re-analysis of the deposited data

How the results depend on the processing

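Cdkn1a 1421679_a_at was the 1 member probe set past 2-fold under each normalization and background tried, at 1.62 to 1.83 under the 3 scalings. Read as genes by the brightest probe set, 0 members reached 2-fold, and 1 did when a gene's probe sets were averaged, Cdkn1a, at 1.00. The 8 measured members were above background in both clones under each background level tried and with each clone alone (without a background filter there is no such count). The count of member probe sets above background ranged from 11 (background at the 99th percentile) to 15 (sensory receptor probe sets), and was 14 or 15 in a single clone. Of the 8 genes, 6 were higher in clone 2 without _x_at and _s_at probe sets and 8 when a gene's probe sets were averaged. Their median difference ranged from 0.19 (quantile) to 0.365 (shifted medians), and was 0.29 without Cdkn1a. Direction depends on the scaling for Mdm4 1419558_at and Trp53inp1 1416927_at, as it does for the list of other cell death targets. The medians of the regulator and cyclin lists, 0.00 as deposited, ranged from -0.01 to 0.09 and from -0.09 to 0.09 under the 3 scalings. No paired analysis was possible because the samples form a single group. Probe sets near background, such as 1416927_at, are limited by their signal.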

Other observations

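The Cip/Kip inhibitors, which bind and block cyclin-CDK complexes, did not differ in a single direction between the clones. Cdkn1a (p21) was higher in clone 2 by both of its probe sets, by 0.26 and 1.74. Cdkn1b (p27), chosen after its values were seen, gave 7.43 in clone 1 and 8.23 in clone 2, 1.74-fold higher in clone 2 by the 1 of its 2 probe sets that was above background. Cdkn1c (p57) was lower in clone 2, by 1.54 on the log2 scale, with 1 probe set. The difference among these genes was not tested.

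The 2 probe sets that exceeded the Cdkn1a difference, named after their values were seen, belong to Arid4a (6.57 and 8.34) and Malat1 (5.59 and 7.53), and each passed background in clone 2 alone. With background at the 99th percentile the Cdkn1a probe set also passed in clone 2 alone. The 5 genes whose probe sets lay further apart than those of Cdkn1a were Spred1, Six4, Ywhaz, Sf1 and Malat1, each with differences of both signs, whereas the Cdkn1a probe sets had 1 sign. These genes had 3 to 7 probe sets above background in both clones and Cdkn1a had 2, so the signs are not compared on equal numbers.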
